A study of Mus musculus with 120 samples.

Results

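The cerebral cortex of 10-week-old mice was compared between animals that carry an expanded ataxin-1 allele and wild-type animals, across every gene counted in bulk RNA. The libraries were taken by their labels, as all those of cortex at 10 weeks with the genotype 175Q (4 mice) or WT (4 mice), which gave 8 of 120 libraries in the series. The 175Q mice are knock-in heterozygotes, with 175 glutamine codons in 1 copy of Atxn1 at its own locus and the usual mouse length of 2 in the other (Atxn1 175Q/2Q). In a further genotype, 175QK772T, the expanded allele also has its nuclear localization signal altered by K772T, and its 4 cortex libraries of the same age were used beside the 175Q and WT libraries. All mice were C57BL/6J, and each of the 12 gave its own library. Females and males were mixed, with 2 females of 4 in 175Q, 3 of 4 in 175QK772T and 2 of 4 in WT. Libraries of hippocampus and striatum from the same mice, and of cortex from other mice at 26 weeks, were used to ask where the cortical differences recur.

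Ataxin-1 is a chromatin-associated protein that binds the transcriptional repressor Capicua, and a lengthened glutamine tract in it causes spinocerebellar ataxia type 1, an inherited disease of the cerebellum and brainstem in which other brain regions are affected as well. Because the knock-in lies in the endogenous gene, the expanded protein is made wherever Atxn1 is normally active, which includes neurons of the cortex. Cortical tissue holds glutamatergic neurons arranged in layers, GABAergic interneurons, astrocytes, oligodendrocytes, microglia and vessels, and RNA of the whole tissue sums over all of them. A lower level of a cell type's genes can therefore come from fewer such cells or from less RNA per cell, which cannot be told apart here.

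Between 72910868 and 97321824 read pairs were assigned to genes in the 175Q libraries, 78873793 to 100754106 in the 175QK772T libraries and 84317481 to 88227337 in the WT libraries. Levels are given as CPM, the pairs of a gene scaled to a common library total, and are not divided by gene length, so they are compared between mice and not between genes. Mitochondrially encoded genes took 4.79 to 5.03% of pairs in 175Q and 4.98 to 5.51% in WT. Haemoglobin transcripts summed to 78.1 to 108 CPM in 175Q, 134 to 163 CPM in 175QK772T and 133 to 181 CPM in WT, so that 175Q and WT did not overlap. The library of 175QK772T replicate 4 stood apart in genes of the choroid plexus and ependyma, which summed to 833 CPM there and to 17.7 to 31.6 CPM in the other 3 of its group. Log2 fold changes, given with their standard error (SE), come from edgeR's quasi-likelihood test on all 12 libraries with sex as a covariate, and calls are genes whose p, adjusted by Benjamini-Hochberg over all genes tested, lay below 0.05. The scaling factors of that fit were 1.01 to 1.02 in 175Q and 0.963 to 0.975 in WT, so a gene with equal CPM in both genotypes has a slightly negative fold change.

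Atxn1 itself (GRCm38 chromosome 13, 45549755 to 45965008, minus strand) was slightly higher in the knock-in cortex. It stood at 119, 112, 115 and 109.7 CPM in 175Q, 125, 117, 119.9 and 125 CPM in 175QK772T and 104, 102, 99.9 and 97.95 CPM in WT. All 4 values of 175Q lay above all 4 of WT, with a log2 fold change of 0.10 ± 0.04 (edgeR adjusted p = 0.0233). The call was lost when 175Q replicate 1, 175Q replicate 3, WT replicate 3 or WT replicate 4 was left out, with an edgeR adjusted p of 0.0839 without 175Q replicate 1. Counts per gene do not separate the expanded allele from the normal allele.

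The 175Q cortex differed from WT at a large share of its genes, and most differences were small. Of 20748 genes tested, 7939 were called by edgeR (38.3%), 3868 of them higher (18.6%) and 4071 lower (19.6%) in 175Q. The median size of a called change was 0.30 on the log2 scale. Falls outnumbered rises among the larger changes: 545 genes rose and 1300 fell by at least 1.5-fold, and 253 rose and 647 fell by at least 2-fold. Among genes with a mean of 10 to 100 CPM, 2261 were higher and 1744 lower, while at 100 CPM and above 652 were higher and 866 lower. The 4 values of 175Q and the 4 of WT did not overlap in CPM for 7988 genes (38.5%). When libraries were scaled by their totals alone, a setting chosen after seeing the data, 5826 genes were higher and 3025 lower, so the balance between small rises and small falls depends on the scaling.

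**Figure D1:**
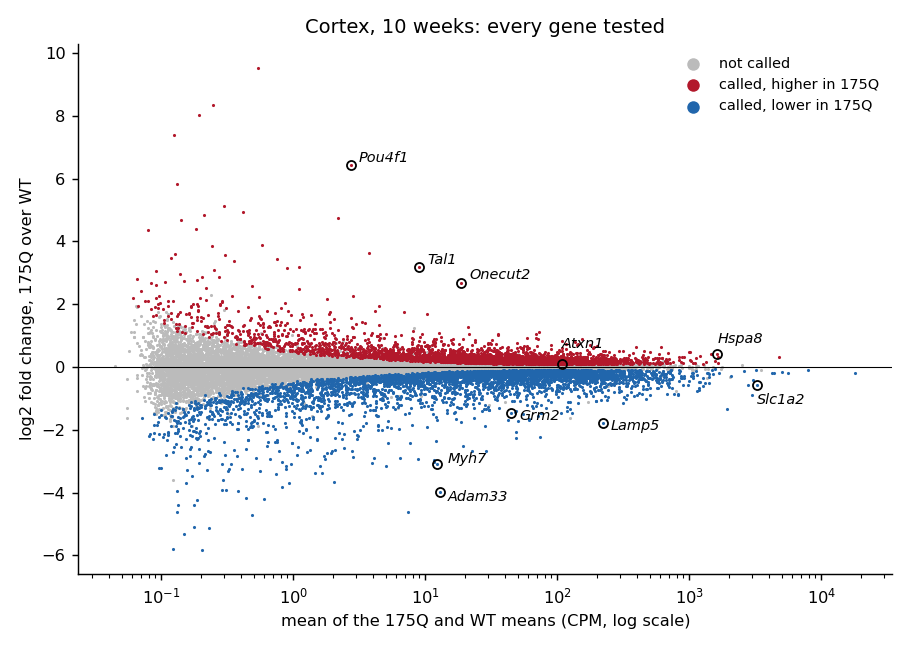
Each point is a tested gene, with the mean of its 175Q and WT mean levels in CPM on a log axis across and the log2 fold change of 175Q over WT upwards. Called genes are coloured by direction, 3868 higher and 4071 lower, and 10 genes described in the text are circled, among them Pou4f1 at 6.43 and Adam33 at -3.98.

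The genes that rose most were led by transcription factors that pattern the embryo. Pou4f1, a factor of sensory neurons, had 5.10, 5.93, 5.24 and 5.18 CPM in 175Q cortex, against 0.0237, 0.147, 0.0115 and 0.0462 CPM in WT cortex, with 2.81, 3.92, 3.24 and 2.75 CPM in 175QK772T. It was close to absent in all 4 WT libraries and present in all 4 of 175Q, with a log2 fold change of 6.43 ± 0.31 (edgeR adjusted p = 7.7e-11). Tal1, a factor of blood formation that also specifies GABAergic neurons of the midbrain and spinal cord, had 19.8, 17.9, 13.8 and 13.8 CPM in 175Q cortex, against 1.54, 1.73, 1.79 and 1.66 CPM in WT cortex (log2 fold change 3.19 ± 0.10, edgeR adjusted p = 1.99e-15). Its 2 highest libraries, 175Q replicates 1 and 2, were the females of that group, and every 175Q value was far above every WT value. Onecut2, a factor of motor neurons and liver, had 35.6, 30.01, 31.6 and 32.8 CPM in 175Q cortex, against 4.53, 5.12, 4.33 and 5.18 CPM in WT cortex (log2 fold change 2.69 ± 0.08, edgeR adjusted p = 9.76e-14). Twist1, a factor of mesenchyme and neural crest, had 7.73, 8.34, 6.24 and 5.23 CPM in 175Q cortex, against 0.723, 0.295, 0.543 and 0.554 CPM in WT cortex (log2 fold change 3.63 ± 0.15, edgeR adjusted p = 1.13e-13). Again no value of 175Q fell within the range of WT.

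Pax2 and En2, both known from the boundary of midbrain and hindbrain, rose as well. Pax2 had 4.49, 4.94, 4.14 and 3.36 CPM in 175Q cortex, against 0.273, 0.113, 0.0924 and 0.115 CPM in WT cortex (log2 fold change 4.76 ± 0.22, edgeR adjusted p = 4.68e-13), and En2 had 3.14, 3.09, 2.99 and 2.62 CPM in 175Q cortex, against 0.593, 0.737, 0.601 and 0.600 CPM in WT cortex (log2 fold change 2.15 ± 0.17, edgeR adjusted p = 1.49e-09). Wt1, a zinc-finger factor of kidney and gonad, stood at 3.22, 1.63, 1.61 and 1.48 CPM in 175Q and 0.237, 0.227, 0.0693 and 0.265 CPM in WT, with 175Q replicate 1 well above the other 3 (log2 fold change 3.20 ± 0.31, edgeR adjusted p = 4.38e-07). The remaining large rises were not all regulators. They included Slc29a4, the plasma membrane monoamine transporter, at 15.8 ± 0.843 CPM in 175Q and 4.70 ± 0.516 CPM in WT (SD, n = 4 each; log2 fold change 1.68 ± 0.08), and Scn9a, a sodium channel best known from pain-sensing neurons (4.71 ± 1.06 and 0.930 ± 0.131 CPM; log2 fold change 2.26 ± 0.15). Sostdc1 and Sfrp5, secreted antagonists of BMP and Wnt signals, rose by 2.48 ± 0.36 and 1.68 ± 0.16, Zfp503, a zinc-finger repressor, by 1.95 ± 0.14, and Sfmbt2, a Polycomb-associated gene, by 1.74 ± 0.09. Dnah14, an axonemal dynein, and Cidea, a lipid-droplet protein of brown fat, rose by 1.78 ± 0.14 and 1.75 ± 0.20 (edgeR adjusted p of these 6 at most 0.000114).

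To show the starts of the strongest responders, promoter sequences are given with their CpG content. Shown are the first 2 genes among the rises and the first 2 among the falls, in order of fold change, that have a single promoter in RefSeq (GRCm38.p6), each from 250 bases before to 50 after the start and read on the gene's strand. Capitals mark every CpG.
Pou4f1 (rose; chr14:104467950-104468249, minus strand): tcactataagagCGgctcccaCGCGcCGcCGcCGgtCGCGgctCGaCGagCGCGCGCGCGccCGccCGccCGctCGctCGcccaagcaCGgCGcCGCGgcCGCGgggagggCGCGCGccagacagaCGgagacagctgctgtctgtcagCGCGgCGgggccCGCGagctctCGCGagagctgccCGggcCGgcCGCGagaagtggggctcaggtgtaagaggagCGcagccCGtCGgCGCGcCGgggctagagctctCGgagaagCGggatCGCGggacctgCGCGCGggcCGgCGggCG
Twist1 (rose; chr12:33957421-33957720, plus strand): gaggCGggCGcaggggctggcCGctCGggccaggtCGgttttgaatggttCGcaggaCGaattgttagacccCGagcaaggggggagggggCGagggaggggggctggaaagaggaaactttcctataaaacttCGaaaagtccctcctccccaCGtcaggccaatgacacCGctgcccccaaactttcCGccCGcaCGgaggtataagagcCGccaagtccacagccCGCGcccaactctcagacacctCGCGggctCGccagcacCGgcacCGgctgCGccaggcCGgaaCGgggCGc
Slc23a3 (fell; chr1:75133841-75134140, minus strand): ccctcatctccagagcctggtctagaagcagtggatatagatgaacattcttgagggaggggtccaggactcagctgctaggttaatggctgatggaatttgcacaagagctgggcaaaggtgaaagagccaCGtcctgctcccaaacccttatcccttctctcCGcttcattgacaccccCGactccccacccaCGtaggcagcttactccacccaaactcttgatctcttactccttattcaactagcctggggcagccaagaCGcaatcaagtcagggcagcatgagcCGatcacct
Olfr464 (fell; chr11:87914954-87915253, minus strand): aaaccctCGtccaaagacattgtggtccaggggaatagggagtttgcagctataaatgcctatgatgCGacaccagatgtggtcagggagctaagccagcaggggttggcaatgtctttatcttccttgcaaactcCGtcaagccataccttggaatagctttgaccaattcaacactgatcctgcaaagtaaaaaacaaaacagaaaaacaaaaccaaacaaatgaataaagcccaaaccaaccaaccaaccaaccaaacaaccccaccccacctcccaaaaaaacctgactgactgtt
Pou4f1 holds 57 CpG, a number reached by 0.152% of the 32841 promoters of this length. Twist1 holds 27, reached by 15.5%. Slc23a3 holds 6 and Olfr464 holds 3, against a median of 7 over all promoters. Among other large changes with a listed promoter, the 8 rises have 7 to 22 CpG, from Pax2 at the promoter listed first to Slc29a4. The 8 falls have 0 to 29, from Arr3 to Rspo1. The ranges overlap, and no test was made. Promoters were listed for 64.9% of tested genes, so called and uncalled genes were not compared.

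The genes that fell most had no common class. Adam33, a membrane metalloprotease, had 1.92, 1.54, 1.55 and 1.45 CPM in 175Q cortex, against 24.4, 19.8, 22.9 and 29.8 CPM in WT cortex (log2 fold change -3.98 ± 0.12, edgeR adjusted p = 2.01e-14). Every 175Q value was far below the lowest WT value, and the 175QK772T values, 2.31, 2.21, 2.22 and 2.40 CPM, lay just above those of 175Q. Myh7 and Tnnc1, the slow myosin heavy chain and the troponin C of heart and slow muscle, fell together. Myh7 had 2.97, 3.09, 2.63 and 2.03 CPM in 175Q cortex, against 23.9, 21.7, 23.8 and 18.3 CPM in WT cortex (log2 fold change -3.10 ± 0.09, edgeR adjusted p = 4.87e-16), and Tnnc1 had 1.27, 0.812, 0.996 and 1.12 CPM in 175Q cortex, against 8.49, 10.4, 9.14 and 7.63 CPM in WT cortex (log2 fold change -3.17 ± 0.16, edgeR adjusted p = 2.56e-12). Rspo1, an R-spondin that strengthens Wnt signalling and marks a subset of upper-layer neurons, had 2.40, 3.18, 2.52 and 2.84 CPM in 175Q cortex, against 23.9, 19.7, 19.02 and 19.2 CPM in WT cortex (log2 fold change -2.97 ± 0.10, edgeR adjusted p = 1.99e-15). Plk5, a polo-like kinase, had 2.63 ± 0.300 CPM in 175Q and 20.5 ± 2.05 CPM in WT (SD, n = 4 each; log2 fold change -3.03 ± 0.10, edgeR adjusted p = 6.48e-15).

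Slc23a3, an orphan member of the ascorbate transporter family, had 0.339, 0.206, 0.300 and 0.398 CPM in 175Q cortex, against 3.18, 4.53, 3.37 and 3.92 CPM in WT cortex (log2 fold change -3.68 ± 0.19, edgeR adjusted p = 2.37e-12). Further falls are given as log2 fold changes, all with edgeR adjusted p of at most 0.00038. They were seen in Arr3, the arrestin of cones (-3.36 ± 0.28), and the olfactory receptors Olfr464 (-3.39 ± 0.23) and Olfr78 (-3.14 ± 0.20). Tspan11, a tetraspanin (-2.94 ± 0.39), and Hfe2, the iron regulator hemojuvelin (-2.93 ± 0.20), fell too. So did Mei1, a meiosis gene (-2.92 ± 0.15), and Cd6, a surface receptor of T cells (-2.91 ± 0.33). Alox12b, a lipoxygenase of skin (-2.87 ± 0.20), and Ighg2c, an immunoglobulin constant region (-3.07 ± 0.15), were the others. Counts of olfactory receptors and immunoglobulin segments may be split between near-identical copies and are uncertain. Tspan11 varied most within WT, with 20.9, 12.03, 12.02 and 16.8 CPM, and still did not overlap with 1.77, 2.58, 2.09 and 1.98 CPM in 175Q.

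**Figure D2:**
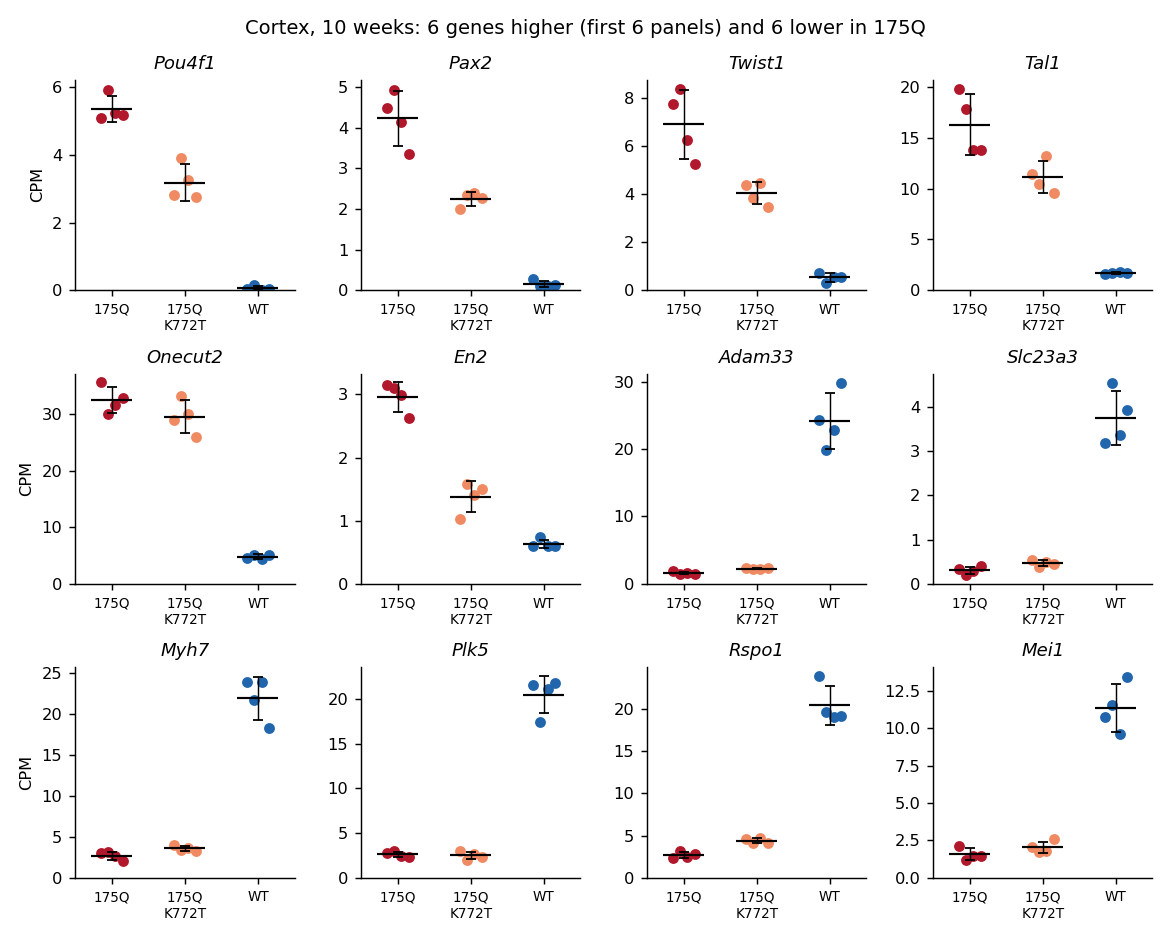
Each panel shows the level of a gene in CPM, from 0, in the 4 libraries of 175Q, 175QK772T and WT, with the mean and SD in black. The first 6 panels are genes that rose and the last 6 genes that fell in 175Q, and in each panel the 4 values of 175Q and the 4 of WT do not overlap.

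Over all tested genes 18.6% were called higher and 19.6% lower, but the called share rose with level. It was 13.9% of genes with a mean below 1 CPM, 50.3% at 10 to 100 CPM and 64.1% at 100 CPM and above. A large called share in a list of well-expressed genes is therefore not by itself an excess. Whether any list differed from genes of similar level was not tested. Of 103 developmental transcription factors listed, 47 had enough counts to be tested, and 20 were called higher and 2 lower in 175Q (median log2 fold change 0.59, against -0.00 over all genes). Several passed the count filter only through the mutant libraries, where they had to differ, so this count is a description. Barx1, a homeobox gene of stomach and jaw, had 74, 116, 108 and 61 pairs in 175Q, 31, 37, 33 and 16 in 175QK772T and none in any WT library. Against a floor of 3 counts over the WT group it was at least 125-fold higher in 175Q. Lhx4, a factor of pituitary and motor neurons, had 60, 108, 57 and 47 pairs in 175Q and 2, 3, 0 and 3 in WT (log2 fold change 4.95 ± 0.42), and Shox2, a factor of limb and heart, had 46, 57, 66 and 24 and 2, 1, 2 and 0 (log2 fold change 5.14 ± 0.54). Msx2, a homeobox factor of limb and skull, did not pass, at -0.03 ± 0.43. Among those called lower was Neurog2, a proneural factor (-1.35 ± 0.24, edgeR adjusted p = 0.000136), which was named after its value was seen. Of the 56 untested members, 9 had no pair in 175Q or WT, 36 had more in 175Q and 10 more in WT, with 1 tied.

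Hox genes, which set position along the body axis and are normally off in the forebrain, were counted mainly in the mutant. Only 4 of 39 were tested, and all 4 were called higher. They passed the count filter mainly through the mutant libraries, where they had to differ, and none reached a mean of 1 CPM, so this count is a description. Hoxc4 had 56, 53, 36 and 18 pairs in 175Q and none in WT, which is at least 56.9-fold higher, and Hoxb5 had 24, 15, 23 and 18 and none, at least 27.9-fold higher. Hoxa7 had 35, 52, 64 and 36 pairs in 175Q and 4, 4, 6 and 1 in WT (log2 fold change 3.58 ± 0.45), and Hoxc6 had 45, 50, 32 and 11 and 0, 1, 0 and 3 (4.85 ± 0.64). Of the 35 untested, 15 had no pair in either genotype, 17 had more in 175Q, 2 more in WT and 1 was tied. Levels were low throughout, with the 39 genes together at 1.56 to 2.85 CPM in 175Q and 0.107 to 0.266 CPM in WT. Floors cover counting error only.

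Polycomb group genes encode the 2 repressor complexes that keep such developmental genes off. Of 32 tested, 19 rose, 3 fell and 10 did not pass (median 0.12). Rnf2, the ubiquitin ligase of the first complex, had 42.02, 42.4, 40.7 and 40.7 CPM in 175Q cortex, against 29.1, 27.2, 25.9 and 26.5 CPM in WT cortex (log2 fold change 0.54 ± 0.05, edgeR adjusted p = 6.04e-08). The groups did not overlap. Bmi1 (0.34 ± 0.04), Cbx8 (0.50 ± 0.08), Pcgf6 (0.26 ± 0.05) and, from the second complex and its partners, Suz12 (0.28 ± 0.04) and Phf1 (0.25 ± 0.05) also rose. Cbx6, another chromodomain subunit, fell, and had 454, 478, 476 and 443 CPM in 175Q cortex, against 571, 579, 577 and 580.2 CPM in WT cortex (log2 fold change -0.39 ± 0.03, edgeR adjusted p = 6.72e-09). The other falls were Phf19 (-0.55, edgeR adjusted p = 0.0497) and Yaf2 (-0.16, edgeR adjusted p = 0.00317), named after their values were seen. Ezh2, the methyltransferase of the second complex, did not pass, with 5.28 ± 0.478 CPM in 175Q and 5.19 ± 0.607 CPM in WT (SD, n = 4 each).

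Proteins that bind ataxin-1 changed little in RNA. Of 12 tested partners, 4 rose, 4 fell and 4 did not pass, a split that became 7 and 3 under scaling by library totals. Ubqln4, a ubiquilin that was found through its binding to ataxin-1, showed the clearest change, with 129, 135, 137 and 129 CPM in 175Q cortex, against 165, 177, 177 and 171 CPM in WT cortex (log2 fold change -0.45 ± 0.04, edgeR adjusted p = 2.72e-09). Rora, a nuclear receptor, fell by 0.23 and Cic, which encodes Capicua, by 0.10 on the log2 scale, the last with overlapping values of 197 to 211 CPM in 175Q and 197 to 216 CPM in WT. Atxn1l, the ataxin-1 paralogue, had 68.2, 62.5, 61.7 and 60.7 CPM in 175Q cortex, against 50.6, 54.03, 51.1 and 54.3 CPM in WT cortex (log2 fold change 0.20 ± 0.04, edgeR adjusted p = 0.000911). Hdac3 (0.18 ± 0.04), Pqbp1 (0.13 ± 0.04) and Anp32a (0.08 ± 0.03) rose, while Kat5 (0.08 ± 0.04), Rbm17 (0.04 ± 0.04), U2af2 (0.02 ± 0.03) and Sp1 (0.02 ± 0.04) did not pass. The call of Cic did not hold under library totals. The smaller calls also rested on single libraries. That of Cic was lost without 175Q replicate 1 or 4 or WT replicate 2, 3 or 4 (edgeR adjusted p up to 0.137), and that of Pqbp1 without 175Q replicate 2 or 3 or WT replicate 4 (up to 0.108). That of Anp32a was lost without each 175Q or WT library other than WT replicate 1 (up to 0.152) and without 175QK772T replicate 4 (edgeR adjusted p = 0.0545). Without WT replicate 4 the partners stood at 2 higher and 3 lower.

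Genes that Capicua is known to repress, the Etv factors and inhibitors of receptor tyrosine kinase signalling, included none called higher. Of 10 tested, 5 fell and 5 did not pass (median -0.28), and under library totals 3 fell. Etv5 had 95.3, 105, 95.1 and 95.99 CPM in 175Q cortex, against 133, 131, 123 and 115 CPM in WT cortex (log2 fold change -0.43 ± 0.05, edgeR adjusted p = 2.75e-06), and the groups did not overlap. Etv4 (-0.50 ± 0.09), Etv1 (-0.31 ± 0.09), Spred1 (-0.26 ± 0.04) and Dusp6 (-0.55 ± 0.18) also fell. The call of Etv1 was lost without 175Q replicate 3 or WT replicate 3 (edgeR adjusted p up to 0.0517), and that of Dusp6 without each library other than 175Q replicate 2 or WT replicate 3 (up to 0.111). Spry4, at 13.5 ± 2.38 CPM in 175Q and 12.97 ± 2.86 CPM in WT (SD, n = 4 each), did not pass.

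Among neurons, all 16 genes tested of GABAergic interneurons fell (median -0.60), and together they summed to 1287 to 1436 CPM in 175Q and 2099 to 2208 CPM in WT. The sizes ranged widely. Lamp5, which marks neurogliaform interneurons and upper-layer neurons, had 91.9, 104, 111 and 103 CPM in 175Q cortex, against 366, 339, 294 and 355 CPM in WT cortex (log2 fold change -1.80 ± 0.08, edgeR adjusted p = 2.72e-08). Gad1, a GABA-synthesizing enzyme, had 214, 233, 241 and 234 CPM in 175Q cortex, against 366, 353, 348 and 361 CPM in WT cortex (log2 fold change -0.70 ± 0.04, edgeR adjusted p = 6.72e-12). Slc32a1, the vesicular GABA transporter found in all GABAergic terminals, had 59.3, 67.8, 72.8 and 63.7 CPM in 175Q cortex, against 64.5, 71.2, 73.3 and 67.7 CPM in WT cortex, which overlap (log2 fold change -0.14 ± 0.05, edgeR adjusted p = 0.0341). The fall was thus shallow in the vesicular transporter and deep in Lamp5. The call of Slc32a1 was lost without 175Q replicate 1 or 4 or WT replicate 2 or 3 (edgeR adjusted p up to 0.151). That of Tac1, which encodes substance P, was lost without 175Q replicate 1, 2 or 3 or WT replicate 2 or 3 (up to 0.176). It was also lost without 175QK772T replicate 4 (edgeR adjusted p = 0.0510). Between 13 and 16 genes of the list were called lower with 1 library of 175Q or WT left out, 13 under library totals, and none was called higher in any of these fits. Lhx6, a factor of interneurons from the medial ganglionic eminence, fell by 0.43 on the log2 scale.

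Neuropeptide genes, many of them made by interneurons, fell in 13 of 18 cases and rose in 1, Nts, the neurotensin gene (log2 fold change 1.91, named after its value was seen). Pdyn, the precursor of dynorphin, had 8.46, 8.97, 8.64 and 7.64 CPM in 175Q cortex, against 25.8, 27.4, 24.7 and 24.2 CPM in WT cortex (log2 fold change -1.67 ± 0.08, edgeR adjusted p = 4.68e-13). Penk, the enkephalin precursor, had 13.5, 16.3, 17.7 and 13.5 CPM in 175Q cortex, against 38.1, 42.2, 37.005 and 36.3 CPM in WT cortex (log2 fold change -1.40 ± 0.08, edgeR adjusted p = 6.61e-10), and Cartpt, at a low level, had 1.62, 1.59, 1.48 and 1.32 CPM in 175Q cortex, against 6.25, 3.71, 4.91 and 6.16 CPM in WT cortex (-1.88 ± 0.20, edgeR adjusted p = 1.08e-06). In none of these did the groups overlap. Cort (-1.20 ± 0.13), Crh (-1.17 ± 0.12), Sst (-0.94 ± 0.09) and Cck (-0.50 ± 0.05) fell as well, whereas Grp (0.13 ± 0.13) and Trh (-0.28 ± 0.26) did not pass.

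Genes of glutamatergic layers split. Of 12 upper-layer genes, 9 fell and 2 rose (median -0.51), and of 13 deep-layer genes 6 fell and 2 rose (median -0.17). Cux2, an upper-layer homeobox factor, had 128, 131, 130.3 and 119 CPM in 175Q cortex, against 169, 161, 163 and 179 CPM in WT cortex (log2 fold change -0.47 ± 0.04, edgeR adjusted p = 1.08e-08). Its groups did not overlap. In the deep layers Ntsr1, a neurotensin receptor that marks corticothalamic neurons of layer 6, had 19.9, 16.2, 17.2 and 16.5 CPM in 175Q cortex, against 7.08, 7.80, 9.41 and 7.09 CPM in WT cortex (log2 fold change 1.08 ± 0.08, edgeR adjusted p = 3.39e-09). Cplx3, a complexin of the subplate, fell by 1.02, Pcp4 by 0.79 and Tbr1, a layer 6 factor, by 0.32 on the log2 scale, while Tle4 and Nxph4 did not pass. Rspo1, described above, is among the upper-layer genes, of which Lhx2 did not pass.

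In glia, astrocyte genes fell in 13 of 14 cases (median -0.39), with a summed level of 5268 to 5493 CPM in 175Q, against 6938 to 7512 CPM in WT. Slc1a2, the main glutamate transporter of astrocytes, had 2663, 2643, 2752 and 2806 CPM in 175Q cortex, against 3971, 3707, 3777 and 3849 CPM in WT cortex (log2 fold change -0.57 ± 0.04, edgeR adjusted p = 8.24e-11). Aldh1l1, a folate enzyme used as an astrocyte marker, had 53.1, 51.8, 56.1 and 51.9 CPM in 175Q cortex, against 76.4, 69.2, 77.3 and 72.6 CPM in WT cortex (log2 fold change -0.55 ± 0.05, edgeR adjusted p = 6.73e-09). Neither pair of groups overlapped, and the gene that did not pass was Gjb6, a connexin, at 50.1 ± 4.06 CPM in 175Q and 57.4 ± 9.72 CPM in WT (SD, n = 4 each). Oligodendrocyte precursors showed 7 falls among 10 genes (median -0.34), among them Olig1 (-0.40 ± 0.05) and Gpr17 (-0.41 ± 0.06). Of 12 genes of mature oligodendrocytes only Cldn11 fell (-0.35 ± 0.12, edgeR adjusted p = 0.0386). Their median of -0.32 was close to that of the precursors, but Mbp, a myelin protein, spread widely in both groups, with 1599 to 2191 CPM in 175Q and 1769.9 to 2390.4 CPM in WT, and did not pass. These counts hung on single mice and on the tool: DESeq2 called 5 of the 12 lower, edgeR called 5 without WT replicate 1 and 4 without 175Q replicate 4, and it called none without any of the other 6 libraries of 175Q and WT. It also called none without 175QK772T replicate 4. The replicate block in place of sex gave 7 lower. Mbp was called by DESeq2 (adjusted p = 0.0408), with the replicate block (edgeR adjusted p = 0.0169) and, without WT replicate 1, by edgeR (adjusted p = 0.0368). Microglia had 5 falls among 12 genes (median -0.11), led by Trem2 (-0.33 ± 0.07), and under library totals 2 rose and 1 fell, so no direction can be given. Without 175Q replicate 1 the list had 1 rise and 1 fall, and without WT replicate 2 it had 3 falls. Endothelial cells and pericytes had 9 falls among 12 (median -0.31), with Kcnj8 at -0.59 ± 0.12 and Cldn5, a tight-junction protein, at -0.42 ± 0.11.

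Markers of neighbouring tissue were checked as a measure of what the dissections held. Of 11 genes of striatal projection neurons, 5 fell and 1 rose. The list summed to 233 to 256 CPM in 175Q and 278 to 334 CPM in WT. The falls were in Pdyn, Penk, Tac1, Gpr6 and Ppp1r1b, the first 3 of which cortical interneurons also make. Whether the share of striatal tissue differed between genotypes was not tested. Ppp1r1b, the phosphoprotein DARPP-32, had 25.2, 28.9, 37.4 and 28.6 CPM in 175Q cortex, against 82.5, 74.8, 73.4 and 91.3 CPM in WT cortex (log2 fold change -1.50 ± 0.11, edgeR adjusted p = 2e-06). The dopamine receptor genes Drd1 (9.49 to 10.1 CPM in 175Q and 8.06 to 8.89 CPM in WT) and Drd2 (0.494 to 1.13 and 0.593 to 0.941 CPM) did not pass. Hippocampal genes were 2 higher and 3 lower of 12, with Wfs1 at -0.96 ± 0.08 and Dsp, low in both genotypes, at 1.48 ± 0.31. Without 175Q replicate 1 only 1 was higher and 1 lower, without 175Q replicate 3 or 4 or WT replicate 2 they were 2 and 1, and without WT replicate 4 they were 1 and 2. Genes of thalamus, midbrain and hindbrain were 1 higher, Tph2 (0.58 ± 0.13), and 3 lower of 10. Choroid plexus and ependymal genes summed to 12.8 to 31.9 CPM in 175Q and 11.5 to 26.1 CPM in WT, with Sostdc1 higher, Foxj1 lower and 10 not passing. The call of Foxj1 was lost without 175Q replicate 1, 3 or 4 or WT replicate 1, 2 or 4 (edgeR adjusted p up to 0.136) and under library totals. When 175QK772T replicate 4 was left out of the fit, 2 were higher and 2 lower. None of 10 genes of meninges and vascular fibroblasts was called by edgeR or DESeq2 (0 at an unadjusted p below 0.05). Their log2 fold changes were all positive, from 0.0015 to 0.47 (median 0.12). They summed to 95.0, 103, 106 and 109 CPM in 175Q and 114, 77.6, 78.6 and 77.3 CPM in WT. Only WT replicate 1 thus lay above the 175Q libraries. Without WT replicate 1 edgeR called 1 higher, and without the low-count filter 3. All 6 genes of red blood cells fell, such as Alas2 (-0.93 ± 0.29, a call lost without 175Q replicate 3 or WT replicate 1, 2 or 3, with edgeR adjusted p up to 0.0670) and the beta-globin gene Hbb-bs (-0.85 ± 0.12), whose counts may be shared with its near-identical copy. The part of residual blood in the falls of vascular genes was not tested.

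Receptors and channels fell more often than they rose. Of 22 glutamate receptor genes 12 fell and 3 rose (median -0.27), of 33 monoamine and acetylcholine receptor genes 19 fell and 2 rose (median -0.40), of 41 potassium channel genes 28 fell and 4 rose (median -0.27), and of 25 sodium and calcium channel genes 13 fell and 5 rose (median -0.15). GABA receptor genes were balanced, with 5 falls and 5 rises among 16 (median -0.06). Each class held genes that moved strongly. Grm2, a presynaptic metabotropic glutamate receptor, had 24.7, 23.5, 25.3 and 24.4 CPM in 175Q cortex, against 59.5, 67.4, 64.3 and 68.1 CPM in WT cortex (log2 fold change -1.48 ± 0.04, edgeR adjusted p = 9.14e-16). Gabrd, the delta subunit of extrasynaptic GABA-A receptors, had 26.996, 30.7, 33.02 and 30.5 CPM in 175Q cortex, against 89.8, 85.9, 89.6 and 97.7 CPM in WT cortex (log2 fold change -1.65 ± 0.06, edgeR adjusted p = 5.18e-14). Kcnh4, a voltage-gated potassium channel, had 12.2, 11.1, 10.8 and 13.5 CPM in 175Q cortex, against 32.98, 32.1, 36.3 and 37.2 CPM in WT cortex (log2 fold change -1.61 ± 0.07, edgeR adjusted p = 5.26e-13). In all 3 the 175Q values lay well below the WT values.

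Among the other ionotropic glutamate receptors Grin2a, an NMDA receptor subunit of mature synapses, had 156, 166, 148 and 159 CPM in 175Q cortex, against 253, 235, 211 and 239 CPM in WT cortex (log2 fold change -0.65 ± 0.05), whereas Grin2b, the subunit typical of earlier stages, did not pass (535 to 658 CPM in 175Q and 477 to 602 CPM in WT). Chrm3, a muscarinic receptor, had 48.5, 44.2, 46.7 and 49.2 CPM in 175Q cortex, against 74.7, 83.3, 83.9 and 86.7 CPM in WT cortex (log2 fold change -0.87 ± 0.04, edgeR adjusted p = 8.82e-13). Adra1d, an adrenergic receptor (-1.19 ± 0.06), Htr2a, a serotonin receptor (-0.99 ± 0.08), and Chrnb3, a nicotinic subunit at a low level (-2.30 ± 0.13), fell, and the nicotinic subunit Chrnb2 rose, with 74.9, 75.6, 77.2 and 73.2 CPM in 175Q cortex, against 53.7, 54.6, 56.5 and 54.7 CPM in WT cortex (log2 fold change 0.38 ± 0.03, edgeR adjusted p = 1.13e-08). Kcnc1, the channel of fast-spiking interneurons, fell by 0.79 on the log2 scale. The sodium channels included rises: Scn3a, mostly known from the immature brain, had 83.7, 69.9, 67.5 and 72.3 CPM in 175Q cortex, against 42.8, 43.05, 46.4 and 45.4 CPM in WT cortex (log2 fold change 0.65 ± 0.05, edgeR adjusted p = 1.09e-08), and Scn2a had 545, 504, 471 and 523 CPM in 175Q cortex, against 372, 389.9, 355 and 373 CPM in WT cortex (0.38 ± 0.04). Cacna1i, a T-type calcium channel (-0.71 ± 0.05), and Cacng3, an AMPA receptor auxiliary protein (-0.54 ± 0.04), fell. GABA-A subunits Gabrb1 (0.30 ± 0.04) and Gabra2 (0.20 ± 0.05) rose.

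Immediate early genes, which neuronal activity switches on, varied among mice of both genotypes. Of 18, 5 fell, 1 rose and 12 did not pass (median -0.42). Bdnf had 20.3, 22.2, 16.99 and 17.5 CPM in 175Q cortex, against 37.2, 32.6, 29.1 and 31.4 CPM in WT cortex (log2 fold change -0.83 ± 0.09, edgeR adjusted p = 4.35e-06), and Homer1, a synaptic scaffold, had 138, 151, 115 and 129.8 CPM in 175Q cortex, against 287, 241, 198 and 243 CPM in WT cortex (log2 fold change -0.94 ± 0.12, edgeR adjusted p = 0.000346). Both separated the genotypes. Arc, by contrast, had 121, 229, 90.5 and 25.9 CPM in 175Q cortex, against 390.2, 147, 159.5 and 191 CPM in WT cortex, a wide and overlapping spread that did not pass (log2 fold change -1.12 ± 0.49), and Fos (0.10 ± 0.45) did not pass either. Egr3 (-0.96 ± 0.15), Fosl2 (-1.02 ± 0.27) and Npas4 (-1.15 ± 0.34) fell, and Jun (0.33 ± 0.08) rose. The call of Fosl2 was lost without 175Q replicate 3 or 4 or WT replicate 1 (edgeR adjusted p up to 0.0547), and that of Npas4 without each library other than 175Q replicate 2 or WT replicate 3 (up to 0.0783).

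Chaperone genes moved in both directions. Of 16, 7 rose, 3 fell and 6 did not pass, and the list summed to 6034 to 6337 CPM in 175Q and 4391 to 4687 CPM in WT. Hspa8, the constitutive Hsp70, had 1871, 1968, 1881 and 1857 CPM in 175Q cortex, against 1404, 1359, 1269 and 1386 CPM in WT cortex (log2 fold change 0.41 ± 0.04, edgeR adjusted p = 2.45e-08), and Hsp90aa1 had 1195, 1257, 1163 and 1168 CPM in 175Q cortex, against 847, 838, 762 and 794 CPM in WT cortex (log2 fold change 0.49 ± 0.04, edgeR adjusted p = 6.32e-09). Hsp90ab1 (0.41 ± 0.03), the mitochondrial Hspd1 (0.36 ± 0.04) and the co-chaperones Stip1 (0.22 ± 0.04) and Dnaja1 (0.23 ± 0.04) also rose, as did the mitochondrial Hspe1 (0.11). The stress-inducible Hspa1a (-0.57 ± 0.09) and Hspa1b (-1.16 ± 0.14), near-identical copies whose separate counts are uncertain, and Stub1, a ubiquitin ligase of the chaperone system (-0.15), fell, and Hsf1, the heat-shock factor, did not pass (0.00 ± 0.05). Hspe1 and Stub1 were named after their values were seen. Cholesterol synthesis genes fell in 12 of 20 cases with none higher (median -0.19). Mvd, a decarboxylase of the mevalonate pathway, had 13.03, 12.8, 15.1 and 16.6 CPM in 175Q cortex, against 17.9, 20.04, 19.9 and 22.6 CPM in WT cortex (log2 fold change -0.56 ± 0.06, edgeR adjusted p = 9.34e-08), and Srebf2, the pathway's transcription factor, fell by 0.25 on the log2 scale, while Sqle (0.03 ± 0.04) and Fdps (-0.16 ± 0.22) did not pass. Of 16 interferon-response genes 1 rose and 15 did not pass. DESeq2 called 3 higher, and edgeR called 4 higher without 175Q replicate 1, 2 without WT replicate 4, and none without 175Q replicate 3 or 4 or WT replicate 2 or 3. Without 175Q replicate 2 the number called was again 1.

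**Figure D3:**
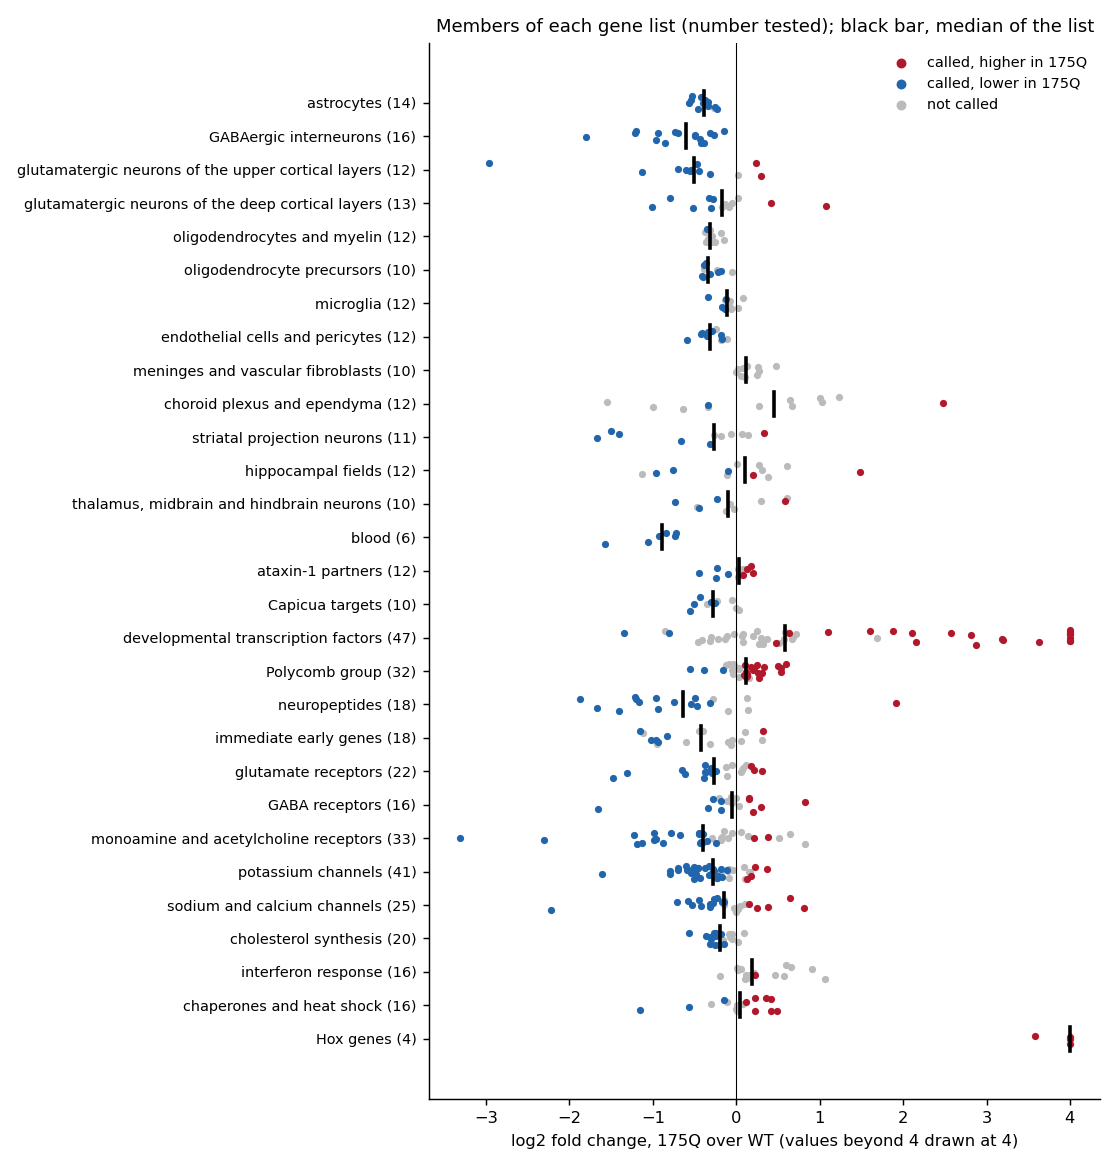
Each row is a gene list with the number of members tested, each point is a member's log2 fold change of 175Q over WT, coloured by call, and the black bar is the list's median. Values beyond 4 are drawn at 4, which affects members of the developmental and Hox rows, and the rows of interneurons (median -0.60) and astrocytes (median -0.39) lie left of 0.

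The question behind the 175QK772T genotype is what changes when the expanded protein carries an altered nuclear localization signal. At 10 weeks the 175QK772T cortex differed from WT in the same genes that changed most in 175Q, and from 175Q at few genes. Between 175QK772T and 175Q 301 of 20748 genes were called by edgeR (1.45%), 205 higher and 96 lower in 175QK772T, and against WT 5411 genes were called in 175QK772T (26.1%). Both contrasts share libraries with the comparison of 175Q and WT. All 15 of the largest rises and all 15 of the largest falls were also called, in the same direction, in 175QK772T against WT.

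Of the 30 genes of largest change, 5 differed between 175QK772T and 175Q. En2 stood at 1.02, 1.59, 1.41 and 1.496 CPM in 175QK772T and 3.14, 3.09, 2.99 and 2.62 CPM in 175Q, a log2 fold change of -1.09 ± 0.16 (edgeR adjusted p = 0.00186). Tal1 had 11.4, 10.4, 13.2 and 9.56 CPM in 175QK772T and 19.8, 17.9, 13.8 and 13.8 CPM in 175Q (-0.61 ± 0.09, edgeR adjusted p = 0.00232). Pax2 (-0.96 ± 0.16, edgeR adjusted p = 0.00667) and Twist1 (-0.86 ± 0.13, edgeR adjusted p = 0.00232) were lower in 175QK772T, and Rspo1 was higher, with 4.60, 4.14, 4.76 and 4.12 CPM in 175QK772T, against 2.40, 3.18, 2.52 and 2.84 CPM in 175Q (0.66 ± 0.10, edgeR adjusted p = 0.00264). In each of these 5 the 175QK772T mean lay between those of 175Q and WT. The 30 genes were chosen for their change in 175Q, and the same 175Q libraries enter both contrasts, so a shift in that direction is partly set by the choice. Onecut2 (-0.14 ± 0.08), Slc29a4 (-0.02 ± 0.08), Plk5 (-0.12 ± 0.11) and Alox12b (0.04 ± 0.22) did not pass. Among the lists, 9 of 14 astrocyte genes were called higher in 175QK772T than in 175Q, such as Slc1a2 (0.28 ± 0.04, edgeR adjusted p = 0.000979). So were 4 of 16 interneuron genes, such as Gad1 (0.16 ± 0.04, edgeR adjusted p = 0.0488). Over all 20748 genes 205 were higher and 96 lower. Developmental factors had 7 lower of 47 tested and chaperones 3 lower of 16, with 0 higher in either list. The lists share the 175Q libraries too. Of the 301 calls, 293 were of genes called between 175Q and WT, each in the opposite direction. There 202 were lower and 91 higher in 175Q, so these directions are partly set by the shared libraries. Of the receptor and channel genes named above, Grm2 (0.37 ± 0.05) and Gabrd (0.31 ± 0.06) were higher and Chrnb2 (-0.17 ± 0.03) lower in 175QK772T. The number of calls rested on single mice: it was 71 without 175Q replicate 1, 86 without 175Q replicate 2 and 138 without 175Q replicate 4, and 151, 113 and 165 without 175QK772T replicates 1, 2 and 3. It was 250 without 175QK772T replicate 4, the library that stood apart. DESeq2 called 789.

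No gene was called for a difference of the 175Q effect between females and males in edgeR (0 of 21331, 0%), with 795 at an unadjusted p below 0.05 and 1 gene called by DESeq2. A gene that was not called is not shown to respond alike in both sexes.

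The same mice gave hippocampus and striatum, so the effect of 175Q was tested for a difference between regions with the mouse as a block. The effect in cortex differed from that in hippocampus for 2217 of 21348 genes (10.4%), 992 of them with a higher and 1225 with a lower fold change in cortex, and from that in striatum for 3152 of 21552 (14.6%), 1489 higher and 1663 lower. These balances depended on the scaling, with 1142 higher and 1110 lower for hippocampus and 1699 and 1411 for striatum under RLE scaling. For striatum they also turned when a WT mouse was left out, to 1364 and 1053 without WT replicate 1, 1318 and 1018 without replicate 2, 1794 and 1257 without replicate 3 and 1722 and 1277 without replicate 4. DESeq2 gave 1217 and 1169 for hippocampus and 1754 and 1391 for striatum. In the regions taken alone, 175Q and WT differed at 4155 of 21071 genes in hippocampus (19.7%) and 6881 of 20998 in striatum (32.8%). Of the 15 largest cortical rises, 11 were also called higher in hippocampus and 8 in striatum, and of the 15 largest falls 6 of 14 tested were called lower in hippocampus and 9 of 13 in striatum. These genes were chosen for their change in cortex, and the cortex libraries enter each difference, so that a smaller effect elsewhere is partly set by the choice.

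Several changes were far larger in cortex. Tal1, with its log2 fold change of 3.19 ± 0.10 in cortex, was at 2.28 ± 0.14 in hippocampus and -0.06 ± 0.22 in striatum (difference of cortex and striatum 3.23 ± 0.17, edgeR adjusted p = 3.56e-08). Adam33, at -3.98 ± 0.12 in cortex, was at -0.71 ± 0.56 in hippocampus and 0.08 ± 0.50 in striatum (difference of cortex and striatum -4.10 ± 0.36, edgeR adjusted p = 8.44e-05). En2 rose by 2.15 ± 0.17 in cortex, against -0.01 ± 0.21 in striatum (difference 2.17 ± 0.28, edgeR adjusted p = 8.87e-05). Wt1 went the other way, with 3.20 ± 0.31 in cortex and 7.36 ± 0.35 in striatum (difference -4.23 ± 0.45, edgeR adjusted p = 1.84e-05). Pou4f1 and Pax2 rose in both cortex and hippocampus, with differences of 0.13 ± 0.69 and 0.02 ± 0.32 that did not pass.

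The 5 genes with the smallest adjusted p for cortex minus hippocampus were Camk2n1, an inhibitor of CaM kinase II (-1.35 ± 0.04 in cortex, -0.56 ± 0.06 in hippocampus), Myl4, an atrial myosin light chain (-2.50 ± 0.07, -0.12 ± 0.15), C130074G19Rik (-1.46 ± 0.04, -0.19 ± 0.08), Fat4, an atypical cadherin (0.84 ± 0.06, -0.33 ± 0.06), and Kctd4 (0.34 ± 0.05, -0.72 ± 0.06), each with an edgeR adjusted p of 1.5e-07. Myl4 joined Myh7 and Tnnc1 as a muscle gene lower in 175Q cortex, with 5.95, 6.23, 5.95 and 6.17 CPM in 175Q cortex, against 30.8, 33.1, 31.98 and 35.2 CPM in WT cortex. For cortex minus striatum they were Hrk, a pro-apoptotic BH3-only gene (-0.20 ± 0.12 in cortex, -2.28 ± 0.15 in striatum), Adcy5, the adenylyl cyclase of the striatum (0.08 ± 0.04, -1.46 ± 0.11), Pdyn (-1.67 ± 0.08, -0.44 ± 0.12), Cpne9 (-1.55 ± 0.08, -3.01 ± 0.40) and Tal1 (edgeR adjusted p at most 3.56e-08). Hrk and Adcy5 were thus not called in cortex and fell in striatum, and Pdyn fell further in cortex than in striatum.

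**Figure D4:**
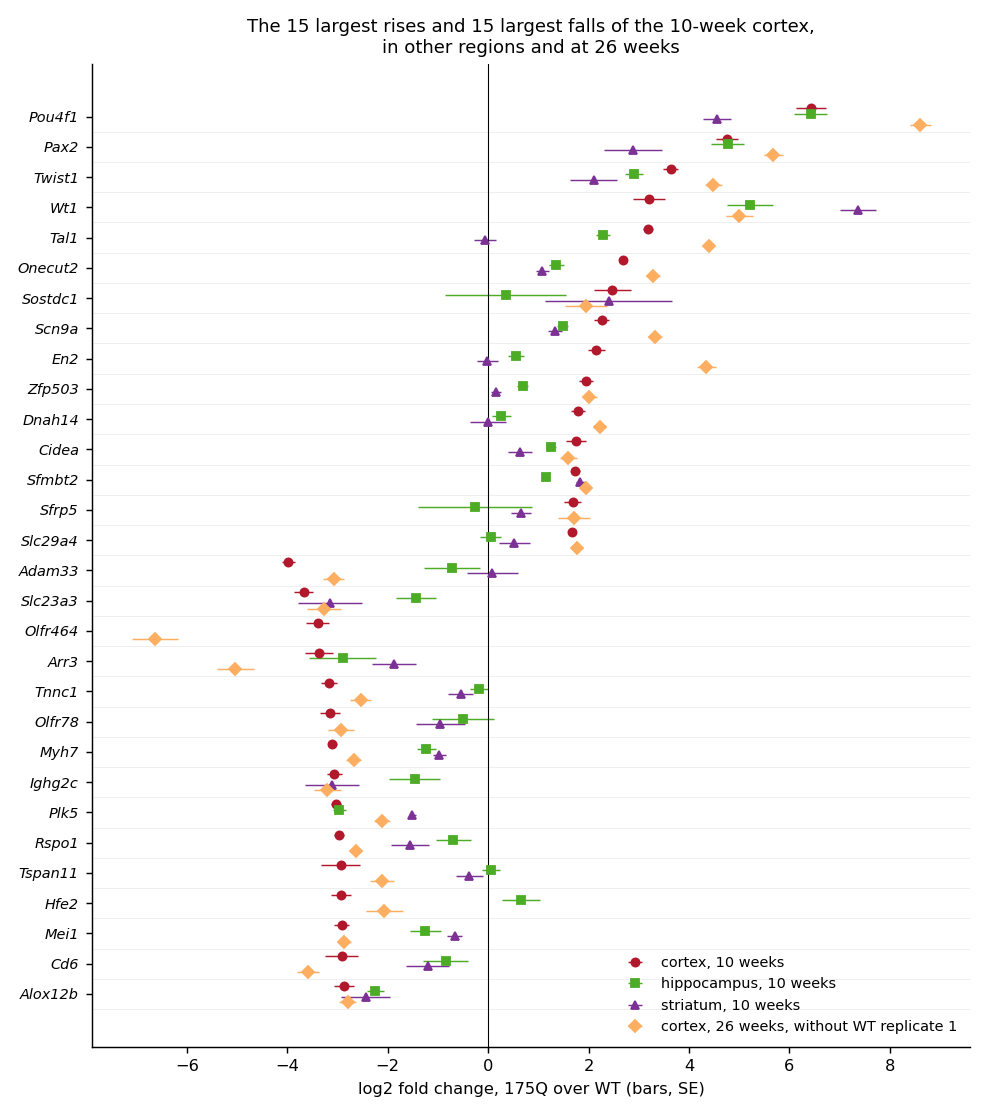
Rows are the 15 genes that rose most and the 15 that fell most in the 10-week cortex, and each marker is the log2 fold change of 175Q over WT with its SE in a region or age. Tal1 at 3.19 in cortex and -0.06 in striatum is a wide separation, while Alox12b lies between -2.80 and -2.25 in the other 3.

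Cortex at 26 weeks came from other mice, which were sequenced as a separate batch with counting options not given in the sources used here, so only the effects of 175Q within each age were compared. The 26-week libraries name the line by another repeat length in their descriptions and by 175Q in the genotype field, which was used. WT replicate 1 of that age stood apart. Its Pou4f1 level of 14.1 CPM was near the 175Q values of 16.5, 18.5, 17.8 and 18.8 CPM. The other 3 WT libraries had 0.0541, 0.0386 and 0.0209 CPM. Onecut2, at 9.03 CPM in WT replicate 1, lay instead within the other WT values (6.37 to 9.47 CPM), against 78.2 to 92.1 CPM in 175Q. Slc29a4, at 38.2 CPM there, lay above all 175Q (10.6 to 15.7 CPM) and other WT libraries (3.25 to 3.88 CPM). Atxn1, at 51.8 CPM, lay below them all (109 to 124 and 101 to 112 CPM). The cause was not tested. With this library, 6216 of 19888 genes were called at 26 weeks (31.3%). For a difference between ages 417 of 21678 were called (1.92%, 191 with a higher and 226 with a lower fold change at 10 weeks). Without it, as chosen after seeing the data, 9109 of 20239 were called at 26 weeks (45%) and 2130 of 22523 for the difference (9.46%, 1308 and 822). With it, the number for the difference was 229 to 271 without 10-week 175Q replicate 2, 3 or 4, 10-week WT replicate 3 or 4 or 26-week 175Q replicate 1, and 213 without 26-week 175Q replicate 4. DESeq2 called 1034. Of the genes called at 10 weeks, 53.5% were called the same way at 26 weeks with that library and 72.5% without it, which is 68.4% and 63.2% of the 26-week calls.

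The largest changes of the 10-week cortex were present at 26 weeks. All 15 falls were called lower in either fit, and of the 15 rises 9 were called higher with WT replicate 1 and 15 without it. Tal1 had a log2 fold change of 3.19 ± 0.10 at 10 weeks and, without that library, 4.39 ± 0.09 at 26 weeks (difference -1 with WT replicate 1 and -1.20 without it, edgeR adjusted p = 0.0055 and 2.22e-06). Its levels at 26 weeks were 48.4, 46.1, 49.1 and 51.8 CPM in 175Q and 4.01, 1.89, 2.26 and 2.13 CPM in WT. Lamp5 had -1.80 ± 0.08 at 10 weeks and -2.72 ± 0.06 at 26 weeks (difference 0.91 with WT replicate 1 and 0.90 without it, edgeR adjusted p = 0.00023 and 2.19e-05). En2 had 2.15 ± 0.17 and 4.35 ± 0.18 (difference -1.50 with WT replicate 1 and -2.22 without it), where the difference passed only without that library (edgeR adjusted p = 0.0826 and 6.54e-07). Adam33 (-3.98 ± 0.12 and -3.08 ± 0.21) and Slc29a4 (1.68 ± 0.08 and 1.77 ± 0.12) did not pass for the difference with WT replicate 1 included (edgeR adjusted p = 0.0582 and 0.344), and Adam33 passed without it (edgeR adjusted p = 0.0214). The other genes of smallest adjusted p for the difference were Rgs2, a regulator of G protein signalling (-0.03 ± 0.04 and -0.65 ± 0.06), Trib2, a pseudokinase (0.15 ± 0.06 and -0.67 ± 0.07), Dlx4, a homeobox gene (1.6 ± 0.20 and 3.75 ± 0.18), and the noncoding Foxl2os (0.43 ± 0.27 and 3.17 ± 0.17). Of these, Rgs2, Trib2 and Foxl2os were not called at 10 weeks, although Trib2 was called there without 175Q replicate 1 or WT replicate 1 or 2 (edgeR adjusted p = 0.0314, 0.0127 and 0.0189).

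By chromosome, calls were spread over the genome, with between 34.4 and 42.5% of tested genes called on each of the 19 autosomes and the X. The X chromosome had the largest excess of rises over falls among them. Of its 668 tested genes 220 were higher and 64 lower (32.9 and 9.58%, median 0.10), against 3644 higher and 3995 lower of 20033 on the autosomes (18.2 and 19.9%, median -0.01). The X median was 0.09 above WT in females and 0.11 in males on the log2 scale. In 175QK772T against WT, which shares the WT libraries, the X had 166 higher and 43 lower. The 175Q effect on the X was 131 higher and 46 lower in hippocampus, 208 and 72 in striatum, and 157 and 40 in cortex at 26 weeks. Named after their values were seen, X genes with small adjusted p included Gprasp1 and Gprasp2, receptor-sorting proteins (0.65 ± 0.04 and 0.81 ± 0.04), and Usp11, a deubiquitinase (0.72 ± 0.04), which rose, and Stard8, a GTPase-activating protein (-1.68 ± 0.05), and Chrdl1, a BMP antagonist (-0.90 ± 0.07), which fell. Within 10 Mb of Atxn1 on chromosome 13, 43 of 175 tested genes were higher and 39 lower (46.9% called), Barx1 among them.

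**Figure D5:**
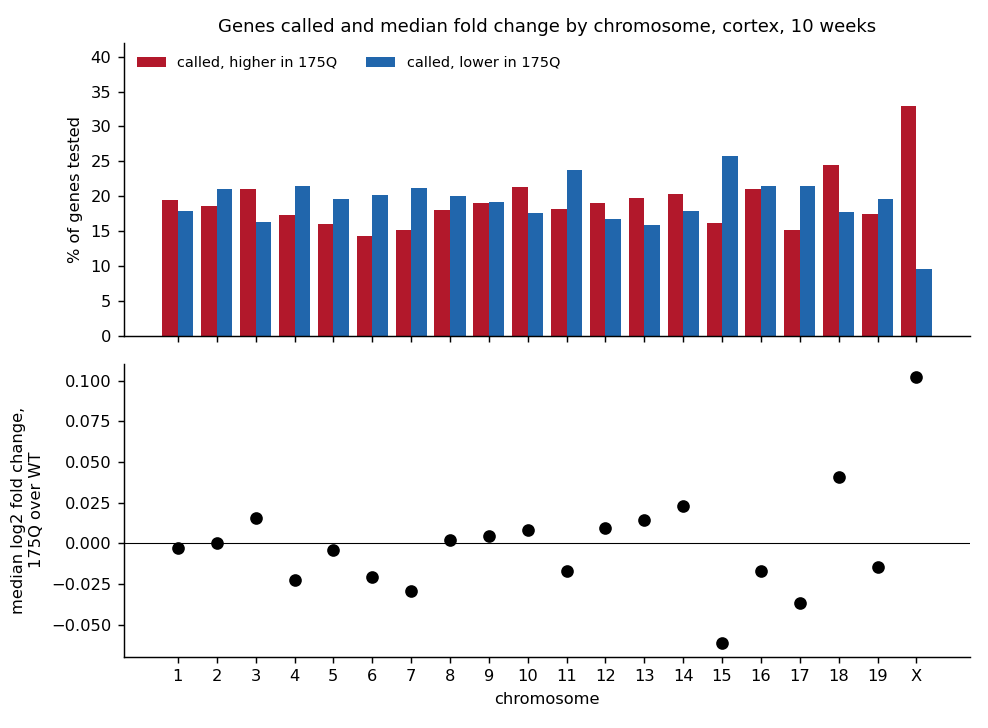
The upper panel gives for each chromosome the percentage of tested genes called higher and called lower in 175Q, and the lower panel the median log2 fold change of all its tested genes. The X stands at 32.9% higher and 9.58% lower with a median of 0.10, apart from the autosomes.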

How the data were processed

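Poly(A)-selected RNA was sequenced as 150-nt read pairs, per the labels' protocols. The authors deposited raw counts of read pairs per gene. Per the submitters' processing notes, bcl2fastq 2.20.0, Trimmomatic 0.33, HISAT2 2.1.0, Subread 1.6.2 (featureCounts) and the GRCm38 build were used, and per the file headers the 10-week pairs were counted against Ensembl release 97 on the reverse strand, if both ends were aligned and mapping quality was 10 or more. Pairs of several genes or places were left out, which lowers counts of near-identical copies. The 26-week counting options are not given in the sources used here.

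Depth and CPM were computed from these counts. edgeR 4.0.16 in R 4.3.3 (limma 3.58.1) tested the 12 cortex libraries of 10 weeks together, after filterByExpr and TMM scaling, by robust quasi-likelihood fits with sex as covariate. Region differences used the mouse as a block. Fits were checked on simulated data with known fold changes. Only a small part of the genes, all of at least 1 CPM, was given a change. In the real comparison of 175Q and WT 38.3% were called, so the rates below hold for the simulated setting only. False calls were 9 of 185 for 175Q against WT, 23 of 201 for 175QK772T against 175Q and 21 of 139 for the sex difference. They were 15 of 165 for cortex minus hippocampus, 12 of 160 for cortex minus striatum and 5 of 129 for the age difference. The false share exceeded the 0.05 set for calls in 175QK772T against 175Q, the sex difference and both region differences. The sex difference recovered 10% of simulated 1.25-fold and 48% of 1.5-fold changes, against 68% and 84% for 175Q against WT. Replicates are separate mice, none a copy of another. The p-values measure the spread between them, except for the region differences, where they measure the spread that remains within mice.

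Genes were named by rule: Atxn1, the 15 largest rises and 15 largest falls among called genes of at least 1 CPM whose groups do not overlap (without chromosome Y, Xist, Tsix and Gm or Rik symbols), from each list up to 8 members of smallest and 2 of largest adjusted p, every ataxin-1 partner, and the 5 of smallest adjusted p per difference of effects. The members and lists were chosen with earlier results of these data known. Alternatives were DESeq2 1.42.0, RLE scaling, library totals, other count filters, no sex term, a replicate block, a fold minimum, the 8 libraries alone and leaving out single libraries. Promoters came from RefSeq tables. Some genes of the lists and of the naming rule are not reported here.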

Additional observations from a re-analysis of the deposited data

Results flagged for a closer look

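Single libraries stood apart from the other 3 of their genotype in 18 of 326 groups examined (Dixon's test of the gap to the nearest value). Chance gives about 1 in 20 groups, so this number is near what it gives. Among genes that rose, the distant values were Wt1 at 3.22 CPM and Sostdc1 at 2.28 CPM in 175Q replicate 1, Pax2 at 0.273 CPM in WT replicate 1, En2 at 0.737 CPM in WT replicate 2 and Sfrp5 at 0.427 CPM in WT replicate 3. Among genes that fell they were Plk5 at 17.4 CPM in WT replicate 2 and Rspo1 at 23.9 CPM in WT replicate 1. Further distant values in 175Q were Foxj1 at 2.95 and Grp at 8.52 CPM in replicate 1, Etv5 at 105 CPM in replicate 2, Hspd1 at 160.0 CPM in replicate 3 and Hspa1a at 3.92 CPM in replicate 4. In WT replicate 1 they were Crh at 7.70, Dusp6 at 91.7, Fos at 44.1, Mbp at 1770 and Olig1 at 74.6 CPM, and in WT replicate 3 it was Egr3 at 149 CPM. WT replicate 1 thus held 7 of the 18, with high Fos and Dusp6 and low Mbp and Olig1.

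The effect of 175Q differed between cortex and hippocampus for 2217 genes, between cortex and striatum for 3152 and between 10 and 26 weeks for 417, by edgeR's test of the difference itself. As log2 fold change in cortex minus that in hippocampus, the named genes with a positive difference were Tal1 (0.91), Onecut2 (1.34), Scn9a (0.77), En2 (1.6), Zfp503 (1.28), Dnah14 (1.52), Sfmbt2 (0.58), Slc29a4 (1.63), Kctd4 (1.07) and Fat4 (1.18). Those with a negative difference were Adam33 (-3.27), Slc23a3 (-2.26), Tnnc1 (-2.98), Olfr78 (-2.65), Myh7 (-1.90), Ighg2c (-1.60), Rspo1 (-2.35), Tspan11 (-2.97), Hfe2 (-3.53), Mei1 (-1.72), Cd6 (-2.12), Camk2n1 (-0.79), C130074G19Rik (-1.27), Myl4 (-2.38) and Lamp5 (-0.83). The muscle genes Myh7, Tnnc1 and Myl4 were therefore among those whose fold change was lower in cortex.

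As log2 fold change in cortex minus that in striatum, positive differences were found for Twist1 (1.48), Tal1 (3.23), Onecut2 (1.58), Scn9a (0.90), En2 (2.17), Zfp503 (1.78), Dnah14 (1.75), Sfrp5 (1.03), Camk2n1 (0.43), Kctd4 (0.52), Fat4 (1.02), Hrk (2.07), Adcy5 (1.53), Cpne9 (1.43), Trib2 (0.46) and Dlx4 (1.41). Negative differences were found for Wt1 (-4.23), Adam33 (-4.10), Tnnc1 (-2.67), Olfr78 (-2.23), Myh7 (-2.15), Plk5 (-1.53), Rspo1 (-1.36), Tspan11 (-2.55), Hfe2 (-4.17), Mei1 (-2.27), Cd6 (-1.78), C130074G19Rik (-0.55), Myl4 (-0.97), Pdyn (-1.24) and Lamp5 (-1.54). Hemojuvelin (Hfe2) and Adam33 had the most negative of these differences after Wt1, and in both region comparisons their fold change was lower in cortex.

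As log2 fold change at 10 weeks minus that at 26 weeks, the values were -1 for Tal1, -0.59 for Onecut2, -1 for Plk5, 0.33 for Adcy5, 0.60 for Rgs2, 0.91 for Lamp5, 0.86 for Trib2, -2.77 for Foxl2os and -2.28 for Dlx4. Without the 26-week WT replicate 1 the same differences were -1.20, -0.61, -0.91, 0.33, 0.61, 0.90, 0.81, -2.82 and -2.14.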

How the results depend on the processing

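Of the calls of 163 named genes, none changed direction under any alternative. DESeq2 called 8201 genes between 175Q and WT and RLE scaling 7948, against 7939, and leaving out each 175Q or WT library, or 175QK772T replicate 4, in turn gave 7063 to 7903. A minimum of 1.5-fold left 1845. Without the low-count filter the total was 8037, but 11 immediate early genes and 12 genes of mature oligodendrocytes were then lower, with Arc at an edgeR adjusted p of 1.23e-170, and the cause was not tested. That filter setting also gave 7 Hox genes higher, and a mean of at least 1 CPM left 0 Hox genes and 10 developmental factors higher. Under library totals 7 named genes lost their call: Cic, Cldn11, Dusp6, Etv1, Foxj1, Slc32a1 and Tac1.

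The difference between 175QK772T and 175Q had 789 calls by DESeq2, 938 without the filter and 71 to 338 with 1 library left out, against 301. The sex difference gave 1 gene by DESeq2, 12 without the filter and 0 to 2 with 1 library left out, against 0. The age difference gave 1034 by DESeq2, 1891 without the filter (1547 with a higher and 344 with a lower fold change at 10 weeks) and 213 to 2130 with 1 library left out, against 417. The totals of the region differences stayed within 1.5 times of 2217 and 3152 under all settings tried. The causes were not tested. Cldn11 also lost its call without 175Q replicate 1, 2 or 3 or WT replicate 2, 3 or 4 (edgeR adjusted p up to 0.109) and without 175QK772T replicate 4 (edgeR adjusted p = 0.0524).

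Whether replicate numbers pair the mice could not be decided. Deviations of same-numbered 175Q and WT libraries correlated at 0.133, -0.134, -0.0976 and 0.145, and not every library correlated best with its own number. The sign followed sex, positive for every combination of the same sex and negative for every other. Numbers 2 and 3, the negative ones, each join a female and a male, so the check cannot tell pairing from sex. With the replicate block in place of sex 7708 genes were called between 175Q and WT and 268 between 175QK772T and 175Q. At the depth of these libraries genes of few pairs, such as the Hox genes, were often not tested, and their silence in WT is bounded only by the floor of 3 counts.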
